A study of Homo sapiens with 8 samples.

Results

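Collagen genes were taken from the count tables of a study of PC3 and DU145, a pair of human prostate cancer cell lines grown from a bone and a brain metastasis. A member is any gene listed in both count tables under the name COL, a number, A and a number, and nothing more. This gave 41 of the 36779 genes listed in either table, of which 10 are fibrillar, 6 belong to type IV (basement membrane), 5 to type VI and 20 to other classes. Another 3 (COL9A1, COL11A1 and COL23A1) stand in only 1 of the tables, with at most 4 counts in any library, and were left out. The rule also left out 7 names that begin alike, such as the antisense genes COL4A2-AS1 and COL4A2-AS2. Each line was transfected with a plasmid carrying circ0003553, with one carrying circ0004592 (both circular RNAs, or circRNAs) or with a negative control plasmid. The circ0003553 arm is called RCAN3 in the titles and the circ0004592 arm STK3, and each arm has its own control. There is 1 library for each line, arm and plasmid, 8 in all, of total RNA with ribosomal RNA removed. The promoter of the plasmids and the time after transfection are not given in the sources used here. Nothing in the labels says that the 2 controls of a line came from separate cultures, so the p-values measure the spread between these libraries, which may be technical.

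Collagens are secreted or membrane proteins in which 3 chains wind into a triple helix. Fibrillar collagens build the rope-like fibrils of connective tissue, type IV collagen forms the network of basement membranes, and type VI collagen forms beaded microfilaments around cells. In carcinomas most of the fibrillar collagen is made by fibroblasts, while the epithelial cancer cells are better known for basement membrane, anchoring and transmembrane collagens.

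Total counts lay between 33444940 and 49926342 per library. A gene with 6 counts, or 3 read pairs, has from 0.118 to 0.184 CPM depending on the library, which is used as the floor. CPM is the count scaled to library size, here with TMM factors. RCAN3 had 44.0 CPM with circ0003553 in PC3, against 33.2 CPM in the control of that arm, and 37.1 against 20.9 CPM in DU145. STK3 had 19.3 CPM with circ0004592 in PC3, against 9.12 CPM in its control, and 34.1 against 26.1 CPM in DU145, and gene counts do not separate circular from linear RNA. The 4 epithelial markers summed to between 538 and 604 CPM in PC3 and between 2918 and 3839 CPM in DU145, with the adhesion protein gene CDH1 between 0.726 and 1.17 CPM in PC3 and between 41.3 and 64.8 CPM in DU145. Of 6 fibroblast markers, 4 are in the tables. They summed to between 1.59 and 3.49 CPM in PC3, mostly PDGFRA, and between 0.0440 and 0.235 CPM in DU145. The smooth muscle list (3 genes) summed to between 3.96 and 5.36 CPM in PC3 and between 3.48 and 4.80 CPM in DU145. The endothelial list (3 genes) summed to between 5.44 and 6.16 CPM in PC3, nearly all PECAM1, and between 0.399 and 0.682 CPM in DU145. Of the leukocyte list CD68, which also marks lysosomes, had 594 and 617 CPM with the circRNA plasmids and 296 and 270.1 CPM in the controls of PC3, and 126 and 169 CPM with the plasmids and 100.4 and 109 CPM in the controls of DU145. The part of CD68 and of the epithelial markers in the collagen results was not tested. PTPRC, which defines leukocytes, was between 0 and 0.0601 CPM in PC3 and between 0 and 0.0392 CPM in DU145.

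In PC3 the collagen message was mostly type VI, and in DU145 it was spread over type IV, type VI, COL18A1 and COL13A1. Per exon length (RPKM, the deposited counts divided by exon length and library total), COL6A1 made 45.4% of the summed collagen level in PC3 and COL6A2 40.2%. In DU145 the leading gene was COL4A2 with 18.0%, followed by COL6A1 with 12.5%, COL6A2 with 12.3% and COL18A1 with 10.9%. The summed RPKM of all 41 members was 1014 ± 25.8 in PC3 and 82.6 ± 1.23 in DU145 (SD, n = 4 libraries each). In CPM the type VI class summed to between 4958 and 5401 in PC3 and between 105 and 114 in DU145. The fibrillar class summed to between 115 and 136 CPM in PC3 and between 45.0 and 57.0 CPM in DU145. Type IV summed to between 232 and 309.9 CPM in PC3 and between 205 and 242 CPM in DU145, and the other classes to between 418 and 566 CPM in PC3 and between 254 and 267 CPM in DU145. The groups did not overlap for the fibrillar class, type VI and the other classes, while for type IV the DU145 library with circ0004592 lay above both PC3 controls. In bulk RNA, fewer cells making a message and less message per cell cannot be told apart.

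**Figure D1:**
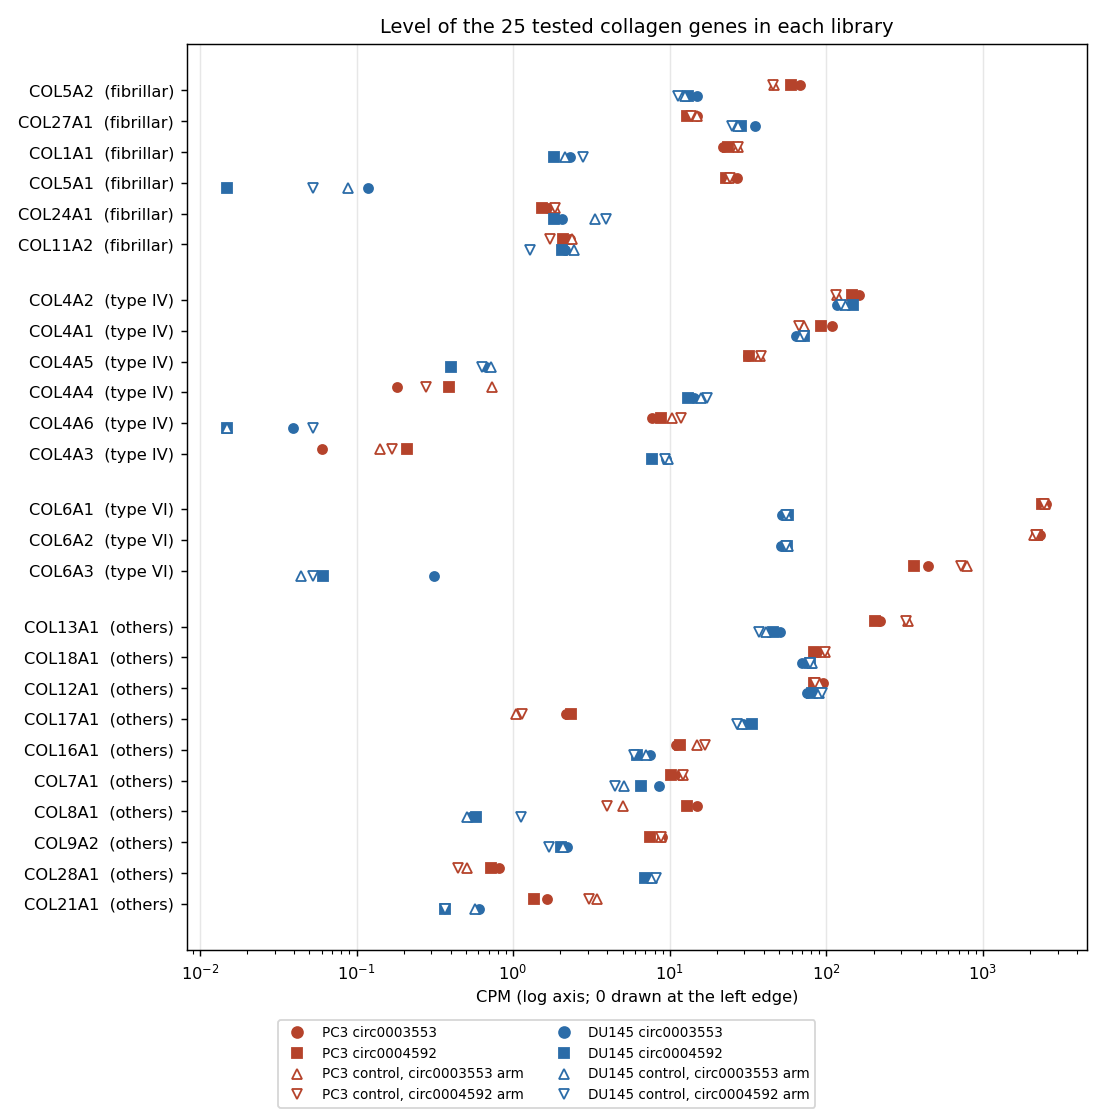
CPM of the 25 tested collagen genes (rows, by class) in each library on a log axis, with PC3 in red and DU145 in blue, filled symbols for circRNA plasmids and open ones for controls, and 0 drawn at the left edge. COL6A1 and COL6A2 have 2104 CPM or more in all 4 PC3 libraries, and COL6A3, COL5A1 and COL4A6 are under 0.4 CPM in all 4 DU145 libraries.

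Testing was limited to genes with at least 1 CPM in at least 2 libraries, 17877 in all, by edgeR's quasi-likelihood test with Benjamini-Hochberg adjustment over all of them at a threshold of 0.05. Of the 41 members 25 passed this filter. The 16 others were COL1A2, COL2A1, COL3A1, COL5A3, COL6A5, COL6A6, COL8A2, COL9A3, COL10A1, COL14A1, COL15A1, COL19A1, COL20A1, COL22A1, COL25A1 and COL26A1, and none exceeded 1.17 CPM in any library. Of the 25 tested, 17 reached 1 CPM in libraries of both lines, 5 in PC3 alone and 3 in DU145 alone. Those 8 passed through the line in which they were high, so the counts between lines describe the members and support nothing.

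PC3 and DU145 were compared with a block for each plasmid and arm, so that each PC3 library faced the DU145 library with the same plasmid. In PC3, 15 of the 25 tested collagens were higher, 6 were lower and 4 did not pass. Over all tested genes 38.5% were higher and 38.4% lower. The median log2 change was 1.01 over the tested members and -0.01 over all tested genes.

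**Figure D2:**
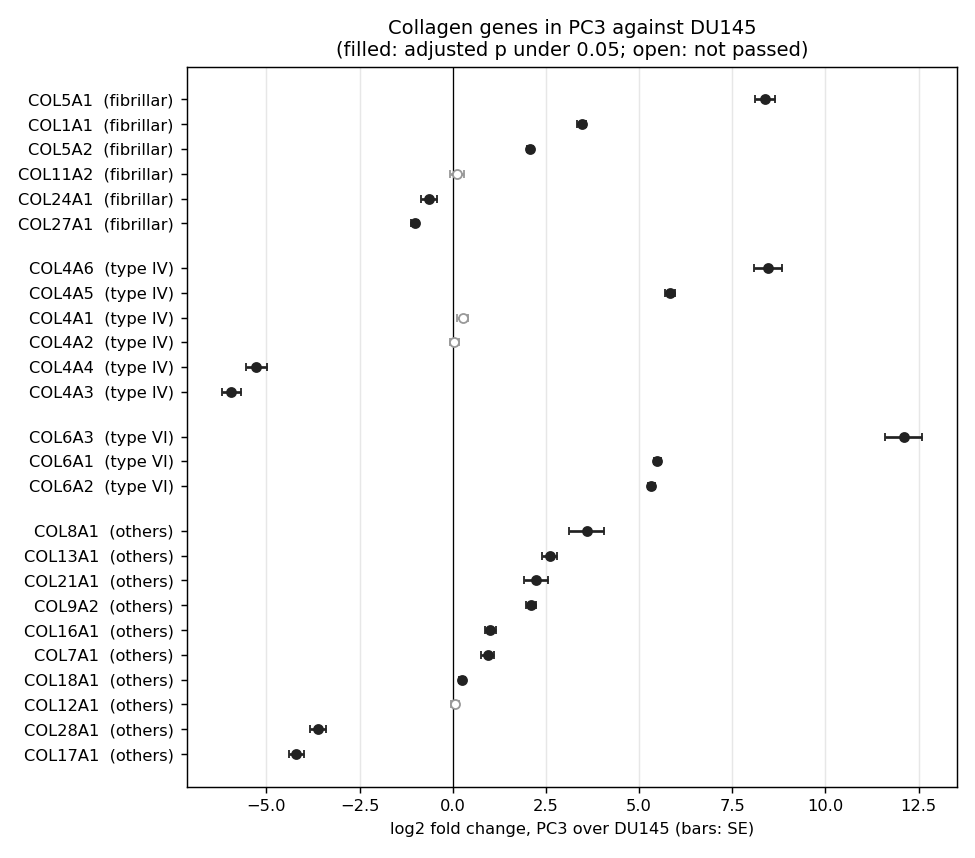
log2 fold change of each tested collagen gene in PC3 over DU145 (x axis, bars are SE from the fit), by class, with filled points past the threshold of 0.05 and open points not. All 3 tested type VI genes lie to the right, and the type IV genes fall into 3 pairs, one to the right, one to the left and one near 0.

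All 3 tested type VI genes were higher in PC3. COL6A1 (chromosome 21, 45981737 to 46005050, hg38) had 2544, 2370.3, 2506 and 2444 CPM in PC3, in the order circ0003553, circ0004592, control of the circ0003553 arm and control of the circ0004592 arm, which holds for every set of 4 values. In DU145 it had 52.3, 57.2, 56.0 and 55.3 CPM. Its log2 change was 5.48 ± 0.095 (SE; edgeR adjusted p = 7.08e-08). COL6A2, its neighbour on chromosome 21 (46098097 to 46132849), had 2312, 2224, 2104 and 2169 CPM in PC3 and 51.5, 55.8, 56.5 and 55.1 CPM in DU145 (log2 5.33 ± 0.097 SE; edgeR adjusted p = 7.49e-08). The lines did not overlap for either gene.

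COL6A3, which encodes the long chain that joins the other two in the standard type VI trimer, went further apart. It had 447, 364, 791 and 726 CPM in PC3 and 0.314, 0.0614, 0.0440 and 0.0524 CPM in DU145, where the libraries held 16, 2, 2 and 2 counts (edgeR adjusted p = 9.77e-07). The summed counts give a ratio of 4471 (95% Clopper-Pearson interval 2498 to 8956, counting error only). COL6A3 passed the filter only through PC3, so its separation between the lines supports nothing. Against COL6A1 per exon length, COL6A3 stood at 0.0478, 0.0418, 0.0859 and 0.0809 in PC3 and at 0.00163, 0.000292, 0.000214 and 0.000258 in DU145. Per length COL6A2 stood at 0.968 to 1.001 of COL6A1 in DU145, so this line held 2 of the 3 chains at similar levels and COL6A3 at or near the floor. The chains that can take the place of COL6A3 were low in DU145 as well, with COL6A5 between 0.105 and 0.430 CPM and COL6A6 between 0.118 and 0.330 CPM, and COL6A5 had 0 counts in all 4 PC3 libraries.

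The 6 type IV genes lie in 3 head-to-head pairs, with the members of a pair read away from each other from neighbouring starts. COL4A1 and COL4A2 chains form the trimer found in nearly all basement membranes, COL4A3, COL4A4 and COL4A5 chains form that of the kidney glomerulus, and COL4A5 joins COL4A6 in that of smooth muscle and of several epithelia. The genes of a pair had the same pattern between the lines. By RefSeq (GRCh38.p14) 126 bases lie between the starts of COL4A1 and COL4A2, 418 between those of COL4A3 and COL4A4, and 379 between those of COL4A5 and the nearer of 2 starts of COL4A6. The sequences between the starts, up to 250 bases before the plus-strand gene, are shown because each pair shares them, and capitals mark the bases within 250 bases upstream of both starts.
Before COL4A2, chr13:110307158-110307283, plus strand: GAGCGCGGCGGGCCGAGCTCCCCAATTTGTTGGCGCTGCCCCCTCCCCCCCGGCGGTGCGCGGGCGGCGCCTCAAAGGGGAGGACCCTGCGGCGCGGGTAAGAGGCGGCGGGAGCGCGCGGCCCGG
Before COL4A3, chr2:227164374-227164623, plus strand: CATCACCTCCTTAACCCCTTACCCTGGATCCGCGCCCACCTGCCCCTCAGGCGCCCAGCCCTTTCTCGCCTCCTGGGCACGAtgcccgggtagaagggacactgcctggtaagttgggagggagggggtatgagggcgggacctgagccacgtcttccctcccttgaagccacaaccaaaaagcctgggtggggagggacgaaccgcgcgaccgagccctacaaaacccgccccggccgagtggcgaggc
Before COL4A5, chrX:108439588-108439837, plus strand: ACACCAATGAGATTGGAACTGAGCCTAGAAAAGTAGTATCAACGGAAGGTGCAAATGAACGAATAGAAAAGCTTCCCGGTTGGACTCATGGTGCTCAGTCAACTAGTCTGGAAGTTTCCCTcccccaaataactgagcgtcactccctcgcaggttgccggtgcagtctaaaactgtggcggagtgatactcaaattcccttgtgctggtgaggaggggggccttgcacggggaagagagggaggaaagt
GC made 80.2% of the first, 66.4% of the second and 51.2% of the third. The median was 58% over all 35116 upstream windows of 250 bases in the RefSeq table. This median was not matched to the shorter length of the first stretch. The letters CCAAT, searched on both strands, occur once in the first stretch and on each strand of the third, and 21.1% of windows of the first length and 32% of those of 250 bases hold them. The letters GGGCGG occur once in the first and on each strand of the second, and 34.6% and 42.6% of windows hold them. TATAAA was found in none of the 3 stretches and in 5.87% and 10.7% of windows.

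COL4A5 and COL4A6 were PC3 messages. COL4A5 (chromosome X, 108439844 to 108697545) had 31.6, 32.0, 37.5 and 38.2 CPM in PC3 and 0.666, 0.399, 0.726 and 0.629 CPM in DU145 (log2 5.82 ± 0.14 SE; edgeR adjusted p = 1.65e-07). COL4A6, on its other side, averaged 9.66 ± 1.77 CPM in PC3 and 0.0229 ± 0.0270 CPM in DU145 (SD, n = 4 each; edgeR adjusted p = 1.23e-06). With 1338 counts in PC3 and 4 in DU145 its ratio was 406 (95% interval 112 to 3358). COL4A3 and COL4A4 were DU145 messages. COL4A4 (chromosome 2, 227002711 to 227164113) had 0.182, 0.390, 0.731 and 0.279 CPM in PC3 and 14.2, 13.1, 15.8 and 17.4 CPM in DU145 (log2 -5.27 ± 0.28 SE; edgeR adjusted p = 2.86e-06). COL4A3 averaged 0.145 ± 0.063 CPM in PC3 and 9.10 ± 0.92 CPM in DU145 (log2 -5.94 ± 0.26 SE; edgeR adjusted p = 1.31e-06). The lines did not overlap for any of the 4 genes. Each passed the filter only through the line in which it was high, so this supports nothing. The messages of COL4A3, COL4A4 and COL4A5, whose chains assemble together, were thus not high together in either line, with COL4A5 under 1 CPM in DU145 and COL4A3 and COL4A4 under 1 CPM in PC3.

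COL4A1 and COL4A2 were present in both lines. COL4A2 (chromosome 13, 110305812 to 110513027) had 162, 146, 116 and 115 CPM in PC3 and 117, 148, 131 and 124 CPM in DU145 (log2 0.04 ± 0.12 SE; edgeR adjusted p = 0.772). With the control libraries alone it was lower in PC3, by a log2 change of -0.14 (edgeR adjusted p = 0.0108). COL4A1 (chromosome 13, 110148963 to 110307149) had 108, 92.6, 72.5 and 67.3 CPM in PC3 and 63.5, 72.4, 69.4 and 72.4 CPM in DU145 (log2 0.27 ± 0.14 SE; edgeR adjusted p = 0.121). Per exon length COL4A1 stood at 0.710, 0.674, 0.662 and 0.624 of COL4A2 in PC3 and at 0.577, 0.520, 0.564 and 0.619 in DU145. The PC3 ratios all exceeded those of DU145, and the PC3 control of the circ0004592 arm lay closest.

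**Figure D3:**
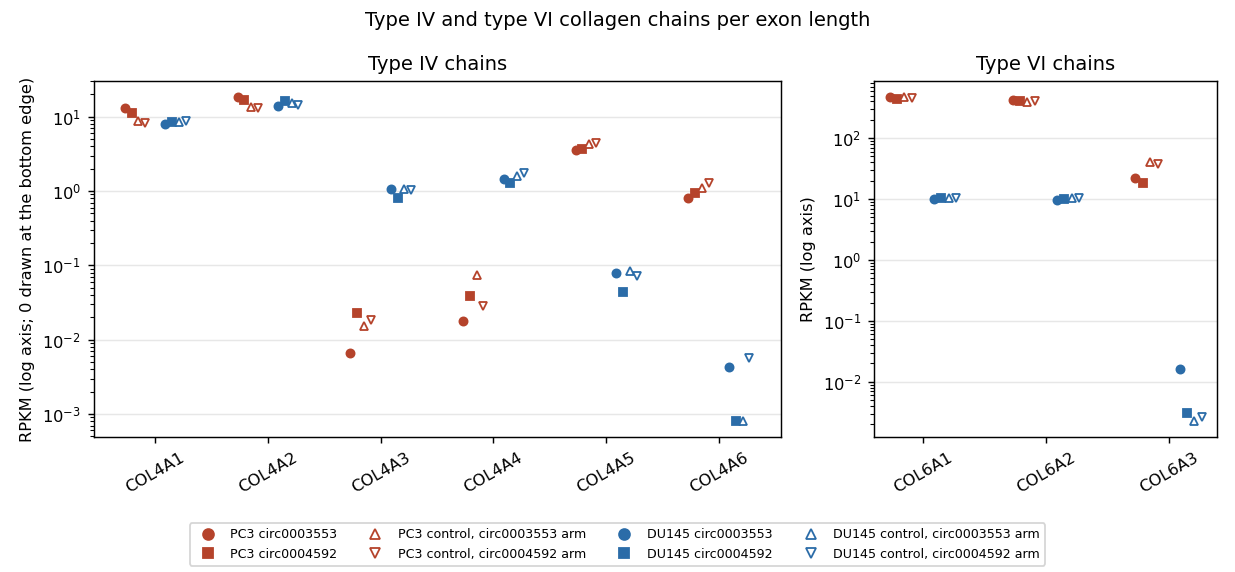
RPKM (log axis) of the 6 type IV chains, left, and the 3 tested type VI chains, right, in each library, with PC3 in red left of DU145 in blue, filled symbols for circRNA plasmids and open ones for controls; 0 is drawn at the bottom edge. COL4A3 and COL4A4 are high in DU145, COL4A5 and COL4A6 in PC3 and COL4A1 and COL4A2 in both, and COL6A3 sits below COL6A1 and COL6A2 in both lines.

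Of the 6 tested fibrillar genes, 3 were higher in PC3, 2 lower and 1 (COL11A2) did not pass. COL5A2, which encodes a chain of the type V collagen that nucleates fibrils, had 68.0, 59.2, 46.0 and 45.8 CPM in PC3 and 14.9, 13.1, 12.5 and 11.2 CPM in DU145 (log2 2.07 ± 0.087 SE; edgeR adjusted p = 1.04e-06). COL5A1, its partner chain, had 27.0, 23.0, 23.8 and 24.1 CPM in PC3 and 0.118, 0, 0.0880 and 0.0524 CPM in DU145, where every library held 6 counts or fewer (edgeR adjusted p = 4.05e-07). The summed counts give a ratio of 341 (95% interval 156 to 929.8). COL5A1 passed the filter only through PC3, so its separation between the lines supports nothing. COL1A1, the main chain of type I collagen, had 21.8, 23.4, 27.2 and 27.3 CPM in PC3 and 2.31, 1.81, 2.16 and 2.80 CPM in DU145. COL1A2, the other chain of type I collagen, had 0 counts in all 4 PC3 libraries, which allows up to 0.182 CPM, and 2 counts in each of 2 DU145 libraries. COL3A1, a fibrillar collagen of soft tissue, reached at most 0.613 CPM in PC3 and 0.157 CPM in DU145. COL27A1, known from cartilage, went the other way, with 15.0, 12.9, 15.0 and 13.7 CPM in PC3 and 34.9, 28.7, 27.4 and 24.9 CPM in DU145. COL24A1 averaged 1.72 ± 0.15 CPM in PC3 and 2.79 ± 1.02 CPM in DU145, with the lines overlapping, and COL11A2 averaged 2.12 ± 0.29 CPM in PC3 and 1.99 ± 0.50 CPM in DU145 (SD, n = 4 each).

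Of the 10 tested collagens of other classes, 7 were higher in PC3, 2 were lower and 1 did not pass. COL13A1, a transmembrane collagen of cell and matrix contacts (chromosome 10, 69801931 to 69964275), had 220.0, 203, 330.0 and 323 CPM in PC3 and 50.6, 45.6, 41.3 and 37.2 CPM in DU145 (log2 2.60 ± 0.20 SE; edgeR adjusted p = 1.6e-05). COL8A1, a short-chain network collagen, averaged 9.22 ± 5.52 CPM in PC3 and 0.686 ± 0.295 CPM in DU145 (SD, n = 4 each). COL9A2, which decorates cartilage fibrils, averaged 8.53 ± 0.70 CPM in PC3 and 2.00 ± 0.21 CPM in DU145. COL21A1, a fibril-associated collagen, averaged 2.36 ± 1.02 CPM in PC3 and 0.479 ± 0.129 CPM in DU145. It passed the filter only through PC3, so its separation supports nothing. COL16A1, a fibril-associated collagen, had 11.01, 11.6, 15.0 and 16.8 CPM in PC3 and 7.53, 6.17, 7.04 and 5.92 CPM in DU145. COL7A1, which forms the anchoring fibrils below epithelia, had 11.7, 10.2, 12.1 and 12.1 CPM in PC3 and 8.56, 6.57, 5.11 and 4.48 CPM in DU145. COL18A1, the source of endostatin, had 88.1, 83.1, 98.2 and 98.0 CPM in PC3 and 70.2, 78.2, 81.5 and 78.8 CPM in DU145. It differed least of those that passed, and 16.4% of its exon length is overlapped by SLC19A1 on the other strand, whose reads cannot be separated where strand was not used in counting.

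The opposite direction was seen for a collagen of hemidesmosomes and for type XXVIII. COL17A1, which encodes the transmembrane collagen that anchors epithelial cells to the basement membrane (chromosome 10, 104031286 to 104086002), had 2.18, 2.34, 1.04 and 1.14 CPM in PC3 and 29.3, 33.7, 29.0 and 27.0 CPM in DU145 (log2 -4.20 ± 0.19 SE; edgeR adjusted p = 1.58e-06). COL28A1 averaged 0.622 ± 0.175 CPM in PC3 and 7.59 ± 0.49 CPM in DU145 (SD, n = 4 each; log2 -3.62 ± 0.21 SE; edgeR adjusted p = 4.56e-06). The lines did not overlap for either, and COL28A1 passed the filter only through DU145, so its separation supports nothing. COL12A1, a fibril-associated collagen, did not pass, with 94.97, 83.4, 90.2 and 84.1 CPM in PC3 and 74.9, 80.7, 89.6 and 94.4 CPM in DU145. Of the 13 collagens followed under 11 alternatives in this comparison, 12 kept their direction and their call, and COL4A2 was the exception given above.

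With the circRNA plasmids the collagens of PC3 moved in both directions. Their sum was 6204 and 5778 CPM with circ0003553 and circ0004592, against 6322 and 6240 CPM in the controls. COL6A1 and COL6A2 made most of it. Type IV summed to 309.9 and 280 CPM, against 238 and 232 CPM, and type VI to 5303 and 4958 CPM, against 5401 and 5339 CPM. The fibrillar class summed to 136 and 123 CPM, against 117 and 115 CPM, and the other classes to 455 and 418 CPM, against 566 and 553 CPM. These sums were not tested. Each circRNA library was tested against both controls of its line, with the lone circRNA library taken to vary like the controls (2 residual degrees of freedom). With circ0003553 in PC3, 5 of the 25 tested collagens rose, 7 fell and 13 did not pass, beside 14.3% of all tested genes higher and 14.5% lower. With circ0004592 in PC3, 5 rose, 5 fell and 15 did not pass, beside 12.3% higher and 13.5% lower over all tested genes. The median log2 change of the tested members was 0.03 with circ0003553 and -0.15 with circ0004592, and over all tested genes -0.03 with each. The plasmids share the control libraries, so their changes are not independent of each other. With each plasmid DESeq2 called as many rises as edgeR among the collagens and fewer falls. Over all tested genes it called fewer in both directions.

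**Figure D4:**
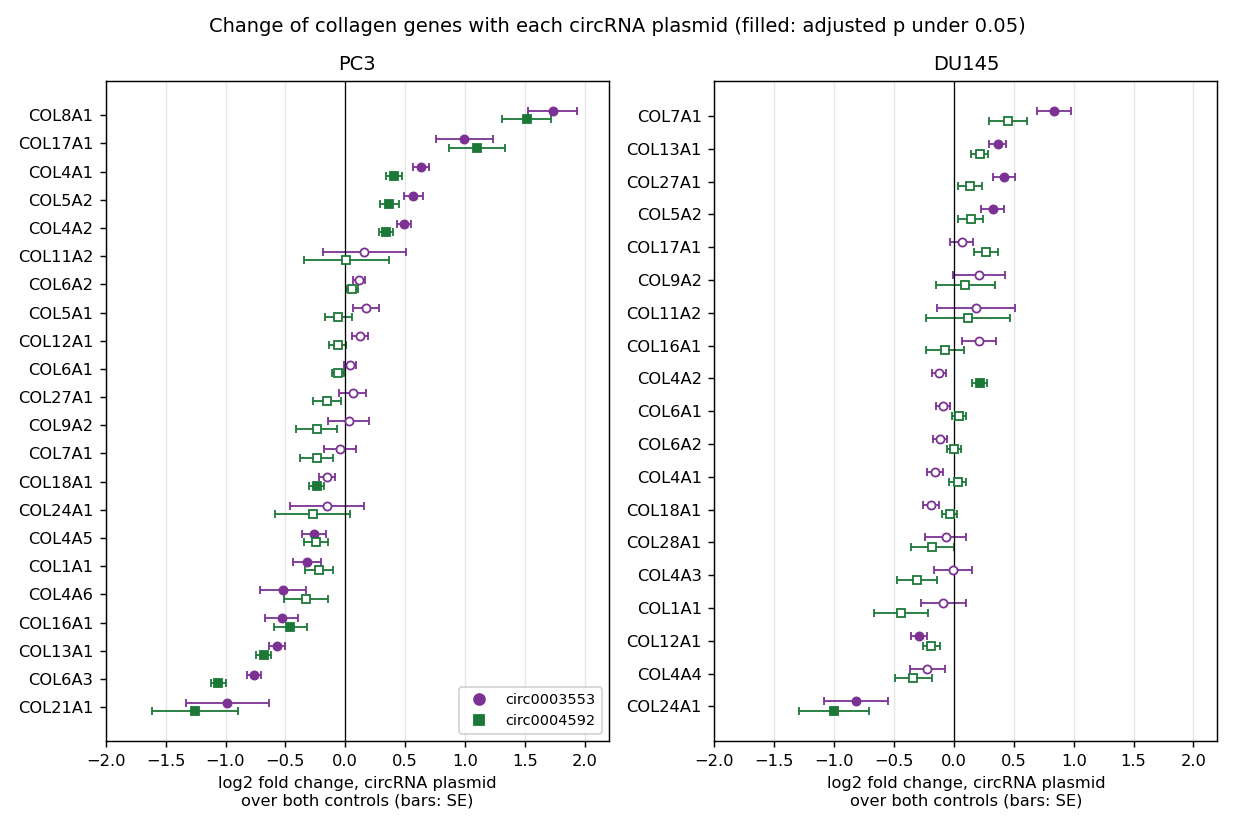
log2 fold change of the collagen genes with a mean of at least 1 CPM in PC3 (left) and in DU145 (right) with circ0003553 (purple circles) and circ0004592 (green squares) over both controls of the line; bars are SE and filled symbols passed the threshold of 0.05. In PC3 COL8A1, COL17A1, COL4A1, COL5A2 and COL4A2 lie to the right with both plasmids, and COL6A3, COL13A1, COL16A1 and COL21A1 to the left.

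COL6A3 fell in PC3 while the other type VI chains did not pass the test. It had 447 CPM with circ0003553 and 364 CPM with circ0004592, against 791 and 726 CPM in the controls, and the circRNA and control libraries did not overlap. The log2 change was -0.76 ± 0.060 with circ0003553 (SE; edgeR adjusted p = 3.98e-10) and -1.06 ± 0.061 with circ0004592 (SE; edgeR adjusted p = 1.01e-12). Against the control of its own arm, with no test, COL6A3 stood at 0.565 of the control with circ0003553 and at 0.501 with circ0004592. COL6A1 changed by 0.04 ± 0.049 on the log2 scale with circ0003553 and by -0.06 ± 0.050 with circ0004592 (SE; edgeR adjusted p = 0.600 and 0.401), and COL6A2 by 0.11 ± 0.050 and 0.06 ± 0.050. The PC3 ratio of COL6A3 to COL6A1 per length was therefore lower with both plasmids than in both controls.

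COL13A1 fell in PC3 with both plasmids. It had 220.0 and 203 CPM with circ0003553 and circ0004592, against 330.0 and 323 CPM in the controls (log2 -0.57 ± 0.063 SE with edgeR adjusted p = 1.65e-07, and -0.68 ± 0.064 SE with edgeR adjusted p = 9.27e-09). COL16A1 fell to 11.01 and 11.6 CPM, against 15.0 and 16.8 CPM in the controls, with edgeR adjusted p = 0.00526 and 0.0151. The calls of COL16A1 were lost with DESeq2 (adjusted p = 0.1698 and 0.276) and limma (adjusted p = 0.0926 and 0.145), and that with circ0004592 also without the PC3 control of the circ0004592 arm (edgeR adjusted p = 0.0663). COL21A1, named outside the rule after its values were seen because it is under 5 CPM, had 1.63 and 1.35 CPM with the plasmids, against 3.43 and 3.04 CPM in the controls, and was called lower with both by edgeR but with neither by DESeq2 (adjusted p = 0.378 and 0.227). COL18A1 was called lower with circ0004592 alone (log2 -0.24 ± 0.065 SE; edgeR adjusted p = 0.00795), and COL1A1, COL4A5 and COL4A6 with circ0003553 alone, by -0.32 ± 0.12, -0.26 ± 0.098 and -0.52 ± 0.19 on the log2 scale (SE; edgeR adjusted p = 0.0398, 0.0471 and 0.0426). DESeq2 called none of these 4. The call of COL1A1 was lost without either PC3 control (edgeR adjusted p = 0.0620 and 0.0666), and that of COL4A6 without the control of the circ0004592 arm (edgeR adjusted p = 0.183).

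COL8A1 had the largest rise among the collagens of PC3 with both plasmids. It had 15.0 CPM with circ0003553 and 12.9 CPM with circ0004592, against 5.03 and 3.99 CPM in the controls, and was 2.96 and 3.20 times the control of the same arm. The log2 change was 1.73 ± 0.20 with circ0003553 (SE; edgeR adjusted p = 3.99e-07) and 1.51 ± 0.21 with circ0004592 (SE; edgeR adjusted p = 4.16e-06). COL17A1 rose to 2.18 and 2.34 CPM, against 1.04 and 1.14 CPM in the controls (log2 0.99 ± 0.24 and 1.10 ± 0.23 SE; edgeR adjusted p = 0.00261 and 0.000937), which left it more than 10-fold under its level in any DU145 library. COL4A1 and COL4A2, the type IV pair present in both lines, rose together. COL4A1 had 108 and 92.6 CPM with the plasmids, against 72.5 and 67.3 CPM in the controls (log2 0.63 ± 0.067 and 0.41 ± 0.068 SE; edgeR adjusted p = 7.65e-08 and 6.49e-05). COL4A2 had 162 and 146 CPM, against 116 and 115 CPM in the controls (log2 0.49 ± 0.060 and 0.34 ± 0.061 SE; edgeR adjusted p = 8.03e-07 and 0.000147). COL5A2 had 68.0 and 59.2 CPM, against 46.0 and 45.8 CPM in the controls (log2 0.57 ± 0.080 and 0.37 ± 0.081 SE; edgeR adjusted p = 5.5e-06 and 0.00126), while COL5A1, its partner, did not pass with either plasmid. The call of COL5A2 with circ0004592 was lost with limma (adjusted p = 0.0846). For each of these 5 genes both circRNA libraries lay above both controls. The genes were picked by the tests on these same libraries, so this adds no support.

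With both circRNA libraries of PC3 set against both controls (4 residual degrees of freedom), 5 of 25 collagens rose and 4 fell, beside 10.2% of all tested genes higher and 10.5% lower. The 5 that rose were COL8A1, COL17A1, COL4A1, COL5A2 and COL4A2, by 1.63 ± 0.20, 1.05 ± 0.20, 0.52 ± 0.094, 0.47 ± 0.096 and 0.42 ± 0.0998 on the log2 scale (SE). The 4 that fell were COL21A1, COL6A3 (-0.90 ± 0.11), COL13A1 (-0.62 ± 0.085) and COL16A1 (-0.49 ± 0.13). Without the PC3 circ0003553 library 3 rose and 2 fell. Without that library the calls of COL4A2 (edgeR adjusted p = 0.117), COL5A2 (edgeR adjusted p = 0.0629) and COL16A1 (edgeR adjusted p = 0.114) were lost, and so was that of COL21A1. The call of COL4A2 was also lost without either PC3 control (edgeR adjusted p = 0.0502 and 0.0637), and that of COL16A1 without the circ0004592 library (edgeR adjusted p = 0.0641), without the control of the circ0004592 arm (edgeR adjusted p = 0.140) and with limma (adjusted p = 0.0754).

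**Figure D5:**
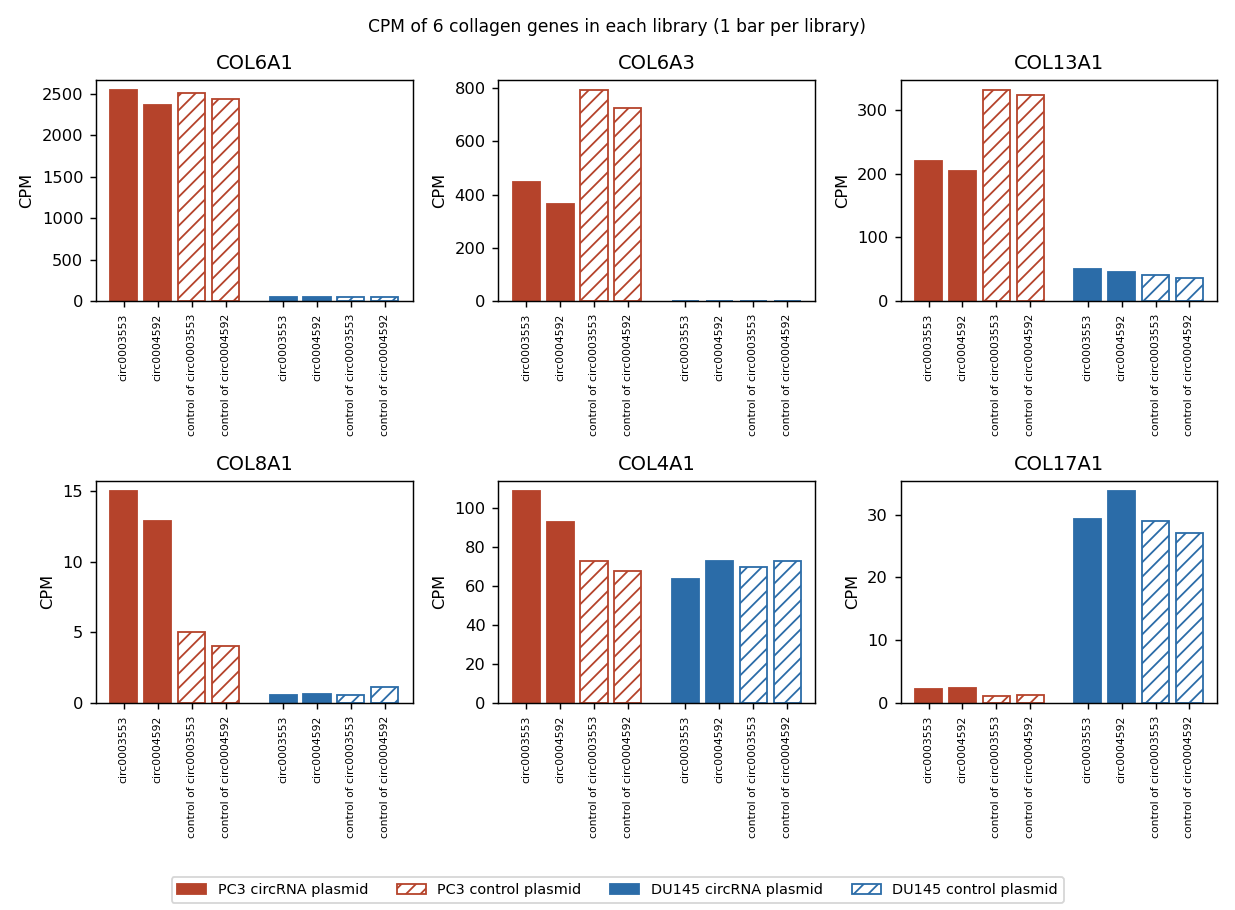
CPM of 6 collagen genes in each library (1 bar per library, linear axes from 0, no error bars because each bar is 1 library), with PC3 in red, DU145 in blue, solid bars for circRNA plasmids and hatched bars for controls. In PC3 COL6A3 and COL13A1 are lower and COL8A1, COL4A1 and COL17A1 higher with both plasmids, and COL6A1 has 2370.3 to 2544 CPM throughout.

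Ratios to the control of the same arm alone have 1 library on each side and so no test. They use the libraries of the PC3 tests above, so their directions add no support to those tests. With circ0003553 and circ0004592, COL13A1 stood at 0.667 and 0.630 of its control and COL16A1 at 0.735 and 0.690. COL17A1 stood at 2.04 and 2.00 times its control, COL4A1 at 1.49 and 1.38, COL5A2 at 1.48 and 1.29 and COL4A2 at 1.39 and 1.27 times. COL6A1 stood at 1.01 and 0.970 of its control and COL6A2 at 1.10 and 1.03. In DU145 the same ratios were 1.22 and 1.23 for COL13A1, 1.67 and 1.46 for COL7A1, 1.28 and 1.15 for COL27A1 and 0.836 and 0.856 for COL12A1. COL4A2 in DU145 stood at 0.896 of its control with circ0003553 and at 1.19 times its control with circ0004592, on opposite sides of 1.

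In DU145 fewer collagens were called. With circ0003553, 5 of 25 rose, 2 fell and 18 did not pass, beside 4.62% of all tested genes higher and 6.27% lower, and the median log2 change was -0.0065 over the tested members and 0 over all tested genes. With circ0004592, 1 rose, 1 fell and 23 did not pass, beside 5.93% higher and 4.51% lower, with a median of -0.04 over the members and 0 over all tested genes. With both circRNA libraries against both controls 1 rose and 0 fell, beside 0.543% higher and 0.464% lower. Limma on log2(RPKM + 0.1) called 0 of the members in DU145 with each plasmid, and 0 of all tested genes. Without the DU145 control of the circ0003553 arm, 4 collagens were called with circ0003553, 1 with circ0004592 and 0 with both plasmids together. Without that of the circ0004592 arm the counts were 2, 0 and 0. Without either PC3 control, which enters through the shared estimate of spread, 5 were called with circ0004592. Without the DU145 circ0004592 library, the test of both plasmids together has circ0003553 alone on the circRNA side.

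COL7A1 was the member called with both plasmids together in DU145. It had 8.56 CPM with circ0003553 and 6.57 CPM with circ0004592, against 5.11 and 4.48 CPM in the controls, without overlap. The log2 change was 0.83 ± 0.14 with circ0003553 (SE; edgeR adjusted p = 0.000422), 0.45 ± 0.16 with circ0004592 (SE; edgeR adjusted p = 0.0718) and 0.67 ± 0.15 with both together (SE; edgeR adjusted p = 0.0437). The call for both together was lost under 5 of 10 alternatives: without the DU145 circ0003553 library (edgeR adjusted p = 0.0979), without either DU145 control (edgeR adjusted p = 0.223 and 0.480), with limma (adjusted p = 0.2995) and with a filter of 5 CPM (edgeR adjusted p = 0.0502). COL13A1 had 50.6 and 45.6 CPM with the plasmids in DU145, against 41.3 and 37.2 CPM in the controls (log2 0.36 ± 0.069 SE with circ0003553, edgeR adjusted p = 0.00119, and 0.21 ± 0.073 SE with circ0004592, edgeR adjusted p = 0.0628). COL27A1 rose to 34.9 CPM with circ0003553, against 27.4 and 24.9 CPM in the controls (log2 0.42 ± 0.094 SE; edgeR adjusted p = 0.00509). COL5A2 rose to 14.9 CPM with circ0003553, against 12.5 and 11.2 CPM (log2 0.32 ± 0.097 SE; edgeR adjusted p = 0.0323), and DESeq2 called neither. COL12A1 fell to 74.9 CPM with circ0003553, against 89.6 and 94.4 CPM in the controls (log2 -0.30 ± 0.067 SE; edgeR adjusted p = 0.00538). Without the DU145 control of the circ0004592 arm the calls of COL27A1 (edgeR adjusted p = 0.0944), COL5A2 (edgeR adjusted p = 0.209) and COL12A1 (edgeR adjusted p = 0.0822) were lost, and without that of the circ0003553 arm the call of COL5A2 (edgeR adjusted p = 0.0685). COL4A2 rose to 148 CPM with circ0004592, against 131 and 124 CPM in the controls (log2 0.21 ± 0.061 SE; edgeR adjusted p = 0.0252), a call lost under 4 of 9 alternatives. COL24A1, named outside the rule after its values were seen, was called lower by edgeR with each plasmid, at 2.06 and 1.81 CPM, against 3.35 and 3.93 CPM in the controls.

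The fifth rise with circ0003553 in DU145 was COL6A3, on 16 counts against 2 in each control (edgeR adjusted p = 0.00812). The ratio was 6.55 (95% interval 1.31 to 63.4, read pairs as the unit of counting error), and only the circ0003553 library stood above its floor of 0.118 CPM. The call was lost without either DU145 control (edgeR adjusted p = 0.101 without that of the circ0003553 arm and 0.0688 without that of the circ0004592 arm).

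Whether a plasmid changed a collagen differently in PC3 and in DU145 was tested as an interaction. The change with circ0003553 was higher in PC3 than in DU145 for 6 of 25 collagens and lower for 4, beside 12.1% and 10.5% of all tested genes. With circ0004592 it was higher for 3 and lower for 2, beside 9.79% and 10.5%, and 3 collagens were called in all without the DU145 control of the circ0004592 arm. With each plasmid COL13A1 had the smallest p among the collagens in this test. Its difference of log2 changes, PC3 minus DU145, was -0.93 ± 0.093 for circ0003553 (SE; edgeR adjusted p = 4.67e-08) and -0.90 ± 0.097 for circ0004592 (SE; edgeR adjusted p = 1.72e-07). COL7A1 differed in the same direction, by -0.88 ± 0.20 and -0.69 ± 0.21 (SE; edgeR adjusted p = 0.002 and 0.0218). COL8A1 differed by 2.32 ± 0.45 and 1.96 ± 0.49 (SE; edgeR adjusted p = 0.000469 and 0.00491), COL17A1 by 0.93 ± 0.26 and 0.83 ± 0.25 (edgeR adjusted p = 0.0102 and 0.0209) and COL4A1 by 0.79 ± 0.096 and 0.37 ± 0.098 (edgeR adjusted p = 1.14e-06 and 0.00743). Of the 5 collagens called with both plasmids, COL13A1 alone kept both calls with DESeq2 and with limma. Both calls of COL7A1 were lost with DESeq2 (adjusted p = 0.107 and 0.287) and limma (adjusted p = 0.0714 and 0.1495), and so were both of COL17A1 (DESeq2 adjusted p = 0.0527 and 0.119, limma adjusted p = 0.116 and 0.131). That of COL4A1 with circ0004592 was lost with both tools (adjusted p = 0.0682 and 0.0741), and both of COL8A1 with limma (adjusted p = 0.0535 and 0.0744). For circ0004592, the calls of COL7A1 and COL8A1 were lost without the DU145 control of the circ0004592 arm (edgeR adjusted p = 0.0973 and 0.116). That of COL17A1 was lost without the PC3 or the DU145 control of the circ0003553 arm (edgeR adjusted p = 0.0559 and 0.0620). COL8A1 had only 19 to 43 counts in each DU145 library, where its circRNA libraries lay within the range of the controls. COL4A2, COL12A1 and COL6A2 were higher and COL6A3 and COL16A1 lower in this test with circ0003553 alone. Of these, COL16A1 was lost with DESeq2 (adjusted p = 0.188), with limma (adjusted p = 0.113) and without the DU145 control of the circ0004592 arm (edgeR adjusted p = 0.0624). COL12A1 was lost with limma (adjusted p = 0.106). COL6A2 was lost with limma (adjusted p = 0.188), with no filter (edgeR adjusted p = 0.0786) and without the PC3 or the DU145 control of the circ0003553 arm (edgeR adjusted p = 0.0701 and 0.0823).

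Over both lines, with each circRNA library set against its matching control plasmid library (2 residual degrees of freedom), edgeR called 0 of all tested genes with either circRNA, which is 0% and holds for the collagens too. At an unadjusted p under 0.05, edgeR had 519 genes with circ0003553 and 542 with circ0004592, of which 1 and 0 were collagens. DESeq2 called 4 genes higher and 7 lower with circ0003553 and 5 higher and 8 lower with circ0004592, with no collagen among them. With circ0003553 it gave no adjusted p to many of the tested collagens, among them COL1A1, COL7A1 and COL8A1. Those could not be called.

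The genes that modify, cut, bind and anchor collagen were read from 4 lists. Between the lines their counts stand beside 38.5% of all tested genes higher and 38.4% lower in PC3. Of 21 genes of collagen modification and folding, all tested, 15 were higher in PC3 and 4 lower (median log2 0.58, beside -0.01 over all tested genes). CREB3L1, a transcription factor of collagen secretion, and FKBP10, a collagen chaperone, were higher by 3.70 ± 0.24 and 2.96 ± 0.12 on the log2 scale, and P4HA1, a prolyl hydroxylase subunit, by 2.41 ± 0.16 (SE). PLOD2, which hydroxylates lysines for crosslinks, was lower by a log2 change of -2.32 ± 0.13 (SE). Of 12 tested genes of propeptide cleavage and crosslinking, 6 were higher in PC3 and 4 lower (median 0.91), with the lysyl oxidase family gene LOXL4 at 4.82 ± 0.21 and the transglutaminase TGM2 at -4.47 ± 0.12 (SE). Of 7 tested collagen receptors 4 were higher and 2 lower (median 0.87). Among the higher were MRC2 (2.07 ± 0.078) and the integrin genes ITGA1 (1.70 ± 0.11) and ITGA2 (1.28 ± 0.075). Among the lower was the receptor kinase DDR2 (-1.15 ± 0.18). Of 15 tested basement membrane partners 8 were higher and 5 lower (median 0.38), with the laminin chain genes LAMB1 at 2.48 ± 0.076 and LAMA1 at -2.80 ± 0.22 (SE).

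With the circRNA plasmids in PC3, P4HA1 and MIA3 rose and CREB3L1 and P3H4 fell, while the collagens moved in both directions. CREB3L1 had 4.93 and 5.44 CPM with circ0003553 and circ0004592, against 9.16 and 8.11 CPM in the controls. Its log2 change was -0.81 ± 0.20 and -0.67 ± 0.20 (SE). P3H4, of the same list, had 13.3 and 14.4 CPM, against 22.0 and 20.8 CPM in the controls. MIA3 loads collagen for export from the endoplasmic reticulum. P4HA1 had 205 and 184 CPM with circ0003553 and circ0004592, against 115 and 117 CPM in the controls (log2 0.82 ± 0.063 and 0.67 ± 0.064 SE; edgeR adjusted p = 2.74e-10 and 1.32e-08). MIA3 had 553 and 561 CPM, against 323 and 334 CPM in the controls (log2 0.75 ± 0.054 and 0.77 ± 0.054 SE; edgeR adjusted p = 6.69e-11 and 4.23e-11). Over the list of modification and folding, 4 rose and 6 fell with circ0003553 and 3 rose and 5 fell with circ0004592, so the list did not move one way. These and the following PC3 counts stand beside 14.3% of all tested genes higher and 14.5% lower with circ0003553, and 12.3% higher and 13.5% lower with circ0004592. Of the 12 tested genes of propeptide cleavage and crosslinking 0 rose in PC3, and 5 fell with circ0003553 and 4 with circ0004592. Their median log2 change was -0.28 and -0.30, beside -0.03 over all tested genes with each. PXDN, a peroxidase that crosslinks type IV collagen, had 104 and 105 CPM, against 163 and 152 CPM in the controls (log2 -0.60 ± 0.066 and -0.59 ± 0.066 SE; edgeR adjusted p = 1.34e-07 and 1.96e-07). LOXL4 fell as well (log2 -0.47 ± 0.11 and -0.73 ± 0.11 SE). Of the receptors 1 rose and 2 fell with each plasmid in PC3. ITGA2, which pairs with ITGB1 as a collagen-binding integrin, had 115 and 109.5 CPM, against 69.6 and 68.1 CPM in the controls, while ITGB1 had 1660.4 and 1699 CPM, against 2042 and 2078 CPM. Of the basement membrane partners 3 rose and 3 fell with circ0003553 and 4 rose and 3 fell with circ0004592, and the heparan sulfate proteoglycan gene AGRN had 328 and 326 CPM, against 193 and 184 CPM in the controls.

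In DU145 the modification and folding list had 0 rises and 3 falls with circ0003553 and 5 rises and 2 falls with circ0004592. The list counts in DU145 stand beside 4.62% of all tested genes higher and 6.27% lower with circ0003553, and 5.93% higher and 4.51% lower with circ0004592. PLOD2 fell to 181 and 158 CPM with circ0003553 and circ0004592, against 229 and 243 CPM in the controls (log2 -0.38 ± 0.062 and -0.58 ± 0.063 SE; edgeR adjusted p = 0.000247 and 2.75e-06). ITGA2 rose to 47.9 and 41.8 CPM, against 29.0 and 29.2 CPM in the controls (log2 0.72 ± 0.069 and 0.52 ± 0.074 SE; edgeR adjusted p = 4.89e-07 and 6.03e-05). It was thus the collagen receptor gene called higher with both plasmids in both lines. Of the list of propeptide cleavage and crosslinking 1 fell with circ0003553 and none was called with circ0004592. Of the basement membrane partners 2 fell with circ0003553, and 3 rose with circ0004592, among them the laminin chain gene LAMB3 (log2 0.38 ± 0.050 SE; edgeR adjusted p = 3.12e-05). MIA3 had 173 and 165 CPM with the plasmids in DU145, against 167 and 173 CPM in the controls, and the difference of its changes between PC3 and DU145 was 0.72 ± 0.079 for circ0003553 and 0.82 ± 0.080 for circ0004592 (SE; edgeR adjusted p = 2.06e-07 and 3.65e-08).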

How the data were processed

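Per the labels' protocols, total RNA was treated with DNase, depleted of ribosomal RNA and made into stranded libraries with an 8-base molecular identifier, sequenced in pairs of 150 bases. Per the submitters' processing notes, Trimmomatic 0.36, featureCounts from Subread 1.5.1, edgeR 3.12.1 and hg38 were used. The aligner, annotation release, strand setting and use of the identifiers are not given in the sources used here, so 4 of 25 tested members (COL4A2, COL4A3, COL16A1 and COL18A1) that overlap an exon on the other strand may share counts. The deposited tables hold raw counts per gene and RPKM per gene, 1 pair of tables per arm, and the deposited RPKM equals count by length and library total. Genes absent from either count list were given 0 there (5511 genes, at most 14 counts). Even numbers made 64.9% to 66.1% of counts from 1 to 20, so the read pair was taken as the unit of counting error; intervals and floors cover counting error only.

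Counts were tested with edgeR 4.0.16 (R 4.3.3, limma 3.58.1, data.table package version 1.17.8): TMM, quasi-likelihood, Benjamini-Hochberg over 17877 genes with at least 1 CPM in 2 libraries. SE was taken as the size of the log2 change over the root of its F statistic. The lines were fitted with a block per plasmid and arm (3 residual degrees of freedom), each plasmid within a line and the interactions with 6 groups, both plasmids together with 4 groups. Own-control ratios used a prior count of 2. Alternatives were DESeq2 1.42.0, its size factors, no filter, a filter of 5 CPM, limma on log2(RPKM + 0.1), other blocks and libraries left out. The pipeline was tested on simulated counts. Members with a mean of at least 10 CPM in a line are given in every library, those from 1 to 10 CPM by means (COL8A1 also in full, added after its values were seen), and statistics for up to 10 called members per comparison at 5 CPM or more and the leading member of each class. List genes were named up to 4 per list and comparison by absolute change. Other statistics of members were added to account for every class. The members and lists were chosen with earlier results of these data known. Marker genes THY1, DCN and CD3E and the receptor LAIR1 were not analysed here. The values of 1 gene of the basement membrane list are not reported here.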

Additional observations from a re-analysis of the deposited data

Results flagged for a closer look

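These collagens stood out because their change with a circRNA plasmid differed between PC3 and DU145 by the test of the difference itself (edgeR adjusted p under 0.05). Each value is the log2 change in PC3 minus that in DU145. With circ0003553 it was 2.32 for COL8A1, 0.93 for COL17A1, 0.79 for COL4A1, 0.61 for COL4A2, 0.42 for COL12A1 and 0.23 for COL6A2. On the other side it was -3.40 for COL6A3, -0.93 for COL13A1, -0.88 for COL7A1 and -0.74 for COL16A1. With circ0004592 it was 1.96 for COL8A1, 0.83 for COL17A1 and 0.37 for COL4A1, and -0.90 for COL13A1 and -0.69 for COL7A1. With DESeq2 or limma, or with both, the calls of COL7A1, COL8A1 and COL17A1 with each plasmid, of COL12A1, COL6A2 and COL16A1 with circ0003553 and of COL4A1 with circ0004592 were lost. The value of COL6A3 rests on 16 counts or fewer in each DU145 library, and those of COL8A1 on 43 counts or fewer there.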

How the results depend on the processing

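Between PC3 and DU145, 12 of 13 collagens followed kept their call under the 11 alternatives, and COL4A2 was lower in PC3 with the control libraries alone (log2 -0.14) and not called otherwise. DESeq2 as the tool called 7 collagens with circ0003553 in PC3, 3 with circ0003553 and 0 with circ0004592 in DU145, and 2 in the interaction of circ0004592. With limma on log2(RPKM + 0.1), 0 were called with circ0003553, circ0004592 or either plasmid in DU145, and 4 and 2 in the interactions of circ0003553 and circ0004592. With no filter, 2 were called with either plasmid in DU145. A filter of 5 CPM, which tests fewer collagens, gave 1 with circ0004592 and 0 with either plasmid there. COL7A1 was still tested under that filter and narrowly missed the threshold with either plasmid. Leaving out 1 library at a time gave 2 to 8 collagens with circ0003553 and 0 to 5 with circ0004592 in DU145, 3 to 5 in the interaction of circ0004592, 5 to 7 with either plasmid in PC3 and 0 to 5 in DU145. Of these, the DU145 control of the circ0004592 arm gave the lowest counts with circ0003553 (2) and circ0004592 (0). With the arm of each line as a replicate block, either plasmid gave 9 collagens in PC3 and 1 in DU145, and no named call changed. In deposited RPKM the summed class levels in PC3 over DU145 were 1.53 (fibrillar), 5.45 (type VI) and 1.18 (others) on the log2 scale, beside 1.30, 5.57 and 0.93 in CPM. Why the counts differ between settings was not tested. Few counts limit COL6A3, COL4A6 and COL5A1 in DU145 and COL4A3 and COL4A4 in PC3. With 1 plasmid in DU145, DESeq2 gave no adjusted p to most tested collagens, among them COL7A1 and COL24A1. Its counts there cover only the rest. Calls with 1 plasmid in DU145 rest on 1 library and on the spread of the controls. With either plasmid, leaving out a circRNA library of a line leaves the other plasmid alone there. Counts under an alternative setting that stand without the share over all tested genes describe the members only.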
